A study of Homo sapiens with 6 samples.

Results

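The AP-1 and immediate early transcription factors described here are 10 genes chosen by symbol, the FOS family (FOS, FOSB, FOSL1 and FOSL2), the JUN family (JUN, JUNB and JUND), EGR1, MAFF and CEBPB, of 63140 genes in the deposited tables. All 10 had enough counts to be tested. AP-1 is a dimer of proteins with a basic region and a leucine zipper, in which a FOS protein pairs with a JUN protein, or a JUN protein with another JUN protein, on a short palindromic DNA element. The genes of FOS and EGR1 are textbook immediate early genes, which serum and growth factors switch on within minutes through MAP kinases and serum response factor and which fall back within hours, whereas FOSL1 and FOSL2 respond more slowly and are held up by sustained ERK signalling. In breast cancer cells of the basal and mesenchymal kind, FOSL1 is the FOS family member best known for high expression, and C/EBPβ, the protein of CEBPB, drives genes of the acute inflammatory response.

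RNA was measured in BT-549 cells, a human triple negative breast cancer line of wild type genotype without the study's transgene, grown for 24 h in adipocyte conditioned medium (ACM, 3 libraries) or unconditioned medium (UCM, 3 libraries). ACM was collected from OP9 mouse cells during their differentiation to adipocytes in a medium with insulin and oleate. The sample labels give 50% ACM, whereas the study's supplement describes undiluted ACM for the RNA-seq cultures. The supplement lists RPMI-1640 with serum and insulin as the medium of BT-549 cells and alpha-MEM with less serum, albumin, oleate and insulin as the medium in which ACM was collected, but does not say that UCM is the former. Base medium, serum, albumin and oleate therefore cannot be told apart from adipocyte secretions. The labels describe 3 replicates per condition in a 6-well plate and do not say whether these came from separate starting cultures, so the p-values measure the spread between these wells. Summed counts were between 18011677 and 21053214 per ACM library and between 17135270 and 20975771 per UCM library. The labels call the cells epithelial. Of 6 epithelial markers, 4 were too low to be tested and the highest of these 4 had 14 counts in any library, and the 6 summed to between 3.46 and 5.75 CPM, while 4 mesenchymal markers summed to between 4117 and 4954 CPM (a gene's counts scaled to a library of fixed size, with edgeR's TMM factors). Of the receptor genes listed as low in triple negative cells, ESR1 and PGR had no count in any library. ERBB2, the other gene of that list, was expressed, at between 61.6 and 73.1 CPM in UCM and between 72.6 and 75.0 CPM in ACM. Of 7 adipocyte markers, 6 were too low to be tested, with at most 2 counts in any library and ADIPOQ, LEP and CIDEC at 0 in all of them, and the 7 summed to between 2.08 and 3.10 CPM in ACM and between 1.40 and 1.92 CPM in UCM, nearly all of it CFD.

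The promoters of the 5 members on which the results turn are printed first, because 3 of these genes rose in ACM and the other 2 were low in replicate 1 of both media. Each run is the 250 bases before the RefSeq start site on GRCh38.p14, written 5′ to 3′ on the gene's strand, and that start site is the start of the canonical GENCODE transcript in all 5. RefSeq entries were found for 9 of the 10 members, and FOSL1 had none. Where a gene had 2 entries, as MAFF and CEBPB did, the entry nearest the canonical start was taken. Capitals mark matches, on either strand, to the AP-1 element TGACTCA, the CRE-like element TGACNTCA, the C/EBP element TTNNGCAA, the EGR element GCGNGGGCG, the TATA box TATAAA and the CArG box, to which serum response factor binds.
JUN (chr1:58784048-58784297, minus strand): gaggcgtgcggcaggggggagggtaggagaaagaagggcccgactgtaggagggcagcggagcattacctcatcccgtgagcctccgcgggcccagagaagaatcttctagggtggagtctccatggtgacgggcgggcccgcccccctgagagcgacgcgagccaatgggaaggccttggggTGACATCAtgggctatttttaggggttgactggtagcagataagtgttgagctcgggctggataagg
MAFF (chr22:38201744-38201993, plus strand): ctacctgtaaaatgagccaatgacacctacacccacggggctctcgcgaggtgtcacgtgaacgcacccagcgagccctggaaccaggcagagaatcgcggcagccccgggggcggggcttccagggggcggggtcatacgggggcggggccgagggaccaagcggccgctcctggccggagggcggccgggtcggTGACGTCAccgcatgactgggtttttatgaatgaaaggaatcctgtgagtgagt
CEBPB (chr20:50190580-50190829, plus strand): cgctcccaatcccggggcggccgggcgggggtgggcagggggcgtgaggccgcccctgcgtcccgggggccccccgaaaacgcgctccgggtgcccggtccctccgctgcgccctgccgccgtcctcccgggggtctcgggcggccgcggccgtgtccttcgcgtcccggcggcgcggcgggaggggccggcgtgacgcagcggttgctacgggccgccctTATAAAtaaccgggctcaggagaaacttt
FOS (chr14:75278578-75278827, plus strand): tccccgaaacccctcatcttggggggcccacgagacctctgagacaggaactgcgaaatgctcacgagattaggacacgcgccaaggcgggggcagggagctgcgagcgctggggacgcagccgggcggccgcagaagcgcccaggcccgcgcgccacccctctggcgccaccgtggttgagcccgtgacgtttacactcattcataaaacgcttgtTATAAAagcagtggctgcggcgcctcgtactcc
EGR1 (chr5:138465229-138465478, plus strand): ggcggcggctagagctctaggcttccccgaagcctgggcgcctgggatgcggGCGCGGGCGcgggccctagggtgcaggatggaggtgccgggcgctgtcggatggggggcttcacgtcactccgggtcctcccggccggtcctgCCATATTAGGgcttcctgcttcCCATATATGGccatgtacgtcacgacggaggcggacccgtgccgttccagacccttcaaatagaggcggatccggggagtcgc

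In these windows the matches lay at different elements. JUN held TGACATCA from -67 to -60 bases and MAFF held TGACGTCA from -54 to -47 bases relative to the start, both CRE-like elements, which 6.87% of 35116 promoter windows of this length in the RefSeq table hold. Among the 9 members with a window, JUND was the third with a CRE-like match, from -200 to -193 bases. CEBPB and FOS each held a TATA box, from -29 to -24 and from -33 to -28 bases, as did FOSB and JUNB, an element that 10.7% of all windows hold. EGR1 held 2 CArG boxes, CCATATTAGG from -105 to -96 bases and CCATATATGG from -83 to -74 bases. Among the 9 members with a window it was the only one with a CArG box there, against 1.16% of all windows. For FOS and the others this says nothing of bases further upstream, which were not searched. EGR1 also held a match to the EGR element from -198 to -190 bases (8.41% of all windows). No member window held TGACTCA (4.2% of all windows) or TTNNGCAA (9.05%), which says only that these letters are not in these 250 bases. The FOSL2 window held none of the 6 elements.

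To ask which of these factors changed with ACM, counts were compared between ACM and UCM with edgeR's quasi-likelihood test, adjusted over the 14451 genes tested. JUN, MAFF and CEBPB rose, by 1.31, 2.20 and 1.69 times, and none of the 10 members fell past an adjusted p of 0.05 (0 at an unadjusted p of 0.05 and 0 by DESeq2 as well). Against these 3 changed members, 5.56% of all genes tested changed, 3.35% being higher and 2.21% lower. At the unadjusted p-value 6 members were higher, against 11.9% of all genes tested, and 11.5% of all genes were lower. These 6 members, FOSL1, FOSL2, JUN, JUND, MAFF and CEBPB, were also those whose 3 ACM values of CPM lay above all 3 UCM values, which 13.9% of all genes tested showed, while 15.1% lay apart the other way and 29% either way. The median log2 FC of the members was 0.40, and that of all genes tested -0.01. Because the members were chosen with earlier results of these data known, these counts and medians are no test of the members as a set. Since these are libraries of whole cultures, more cells with a transcript and more transcript per cell cannot be told apart.

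**Figure D1:**
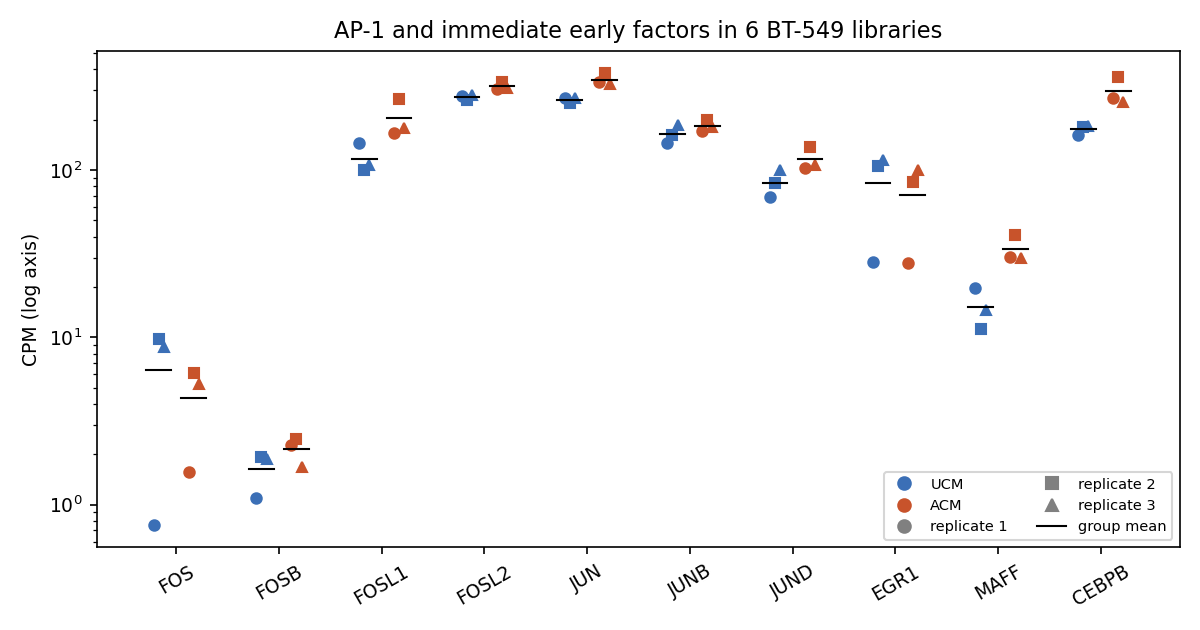
Level of the 10 members in CPM on a log axis, with blue points for UCM, orange points for ACM, a symbol for each replicate number and a black line at each group mean. The ACM points of JUN, MAFF and CEBPB lie above their UCM points, and the replicate 1 circles of FOS and EGR1 lie far below the other points in both media.

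CEBPB (ENSG00000172216), whose product C/EBPβ is a basic leucine zipper factor of inflammation and of early fat cell differentiation, has its 1 exon on chromosome 20 (GRCh38, plus strand) from 50190830 to 50192668. Its CPM was 271, 359.8 and 256 across ACM replicates 1 to 3 against 162, 181 and 183 in UCM. The groups did not overlap, and the lowest ACM library was well above the highest UCM library. The log2 FC was 0.75 (standard error, SE, of 0.13, 95% interval 0.47 to 1.04, edgeR adjusted p = 0.0151). ACM replicate 2 was the highest library, and without it the log2 FC was 0.59 with an adjusted p-value of 0.0096 from edgeR. Without UCM replicate 2, the adjusted p-value from edgeR was 0.0653 at a log2 FC of 0.78. CEBPB-AS1, which overlaps the gene on the other strand, had between 8 and 21 counts per library, against at least 3141 for CEBPB.

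MAFF (ENSG00000185022), a small MAF protein that has a leucine zipper but no activation domain and that pairs with NRF factors and BACH proteins, lies on the plus strand of chromosome 22 from 38200767 to 38216507. Its CPM was 30.1, 40.9 and 29.6 across ACM replicates 1 to 3 against 19.8, 11.2 and 14.5 in UCM. All ACM libraries were above all UCM libraries, and within UCM replicate 1 was the highest. The log2 FC of 1.14 was the largest among the 10 members (SE 0.22, 95% interval 0.63 to 1.65, edgeR adjusted p = 0.0304). The call rested on each of 5 libraries, since without any 1 of ACM replicates 1, 2 and 3 and UCM replicates 2 and 3 the adjusted p-value from edgeR lay between 0.0521 and 0.125, while the log2 FC stayed between 0.96 and 1.39 over all 6 such fits. PLA2G6, which overlaps MAFF on the other strand, had between 51 and 111 counts per library, against between 208 and 726 for MAFF, and its reads cannot be told apart from those of MAFF where the genes overlap if strand was not used in counting.

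JUN (ENSG00000177606), which encodes c-Jun, the partner that FOS proteins need to bind DNA, lies on the minus strand of chromosome 1 from 58776845 to 58784048, with 1 exon in its canonical transcript. Its CPM was 335, 379 and 328 across ACM replicates 1 to 3 against 269, 253 and 270.3 in UCM. The groups did not overlap, and the UCM libraries lay close together. The log2 FC was 0.39 (SE 0.07, 95% interval 0.23 to 0.56, edgeR adjusted p = 0.0155). The adjusted p-value of JUN rose above 0.05 without ACM replicate 2 (0.0537 from edgeR), without UCM replicate 2 (0.0973) or without UCM replicate 3 (0.0562), at a log2 FC of 0.33, 0.36 and 0.42.

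The other JUN genes were not called by edgeR. JUND, whose product is the JUN protein of resting cells and restrains growth, had 103, 137 and 108 CPM across ACM replicates 1 to 3 against 69.1, 83.7 and 99.5 CPM in UCM. The groups did not overlap in CPM, but the highest UCM library came near the lowest ACM library, and the log2 FC of 0.46 (SE 0.15, edgeR adjusted p = 0.126) did not pass the adjusted p-value. It passed with DESeq2 (adjusted p = 0.0161), within a range of 3.04e-06 to 0.320 over 15 alternatives, of which 3 called it. JUNB, a weaker activator that can oppose c-Jun, had 172, 200.2 and 180.1 CPM in ACM and 145, 162 and 187 CPM in UCM, so the groups overlapped. Its log2 FC was 0.16 (SE 0.10, edgeR adjusted p = 0.358), and the 95% interval of -0.06 to 0.38 runs from a small fall to a rise near that of JUN. HOOK2 overlaps JUNB on the other strand, with between 350 and 499 counts per library against at least 3011 for JUNB.

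Of the FOS family, FOSL1 and FOSL2 made up most of the transcripts. FOSL1, which encodes FRA-1, a FOS protein that lacks the activation domain of c-Fos and is stabilised by ERK, lies on the minus strand of chromosome 11 from 65892049 to 65900573. Its CPM was 167, 267 and 178 across ACM replicates 1 to 3 against 145, 100.4 and 107 in UCM. The groups did not overlap, with ACM replicate 2 far above the other ACM libraries and UCM replicate 1 the highest of its group. The log2 FC was 0.80 (SE 0.23, 95% interval 0.25 to 1.34), and the adjusted p-value of 0.102 from edgeR missed the threshold. DESeq2 gave an adjusted p-value of 0.0492 for FOSL1, and 4.78e-04 when the deposited effective lengths were used as offsets, whereas with each library left out in turn edgeR gave between 0.0862 and 0.299. FOSL2, the gene of FRA-2, had 305, 336 and 311 CPM in ACM and 277, 263 and 281 CPM in UCM, without overlap. The log2 FC of FOSL2 was 0.21 (SE 0.07, edgeR adjusted p = 0.0916).

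**Figure D2:**
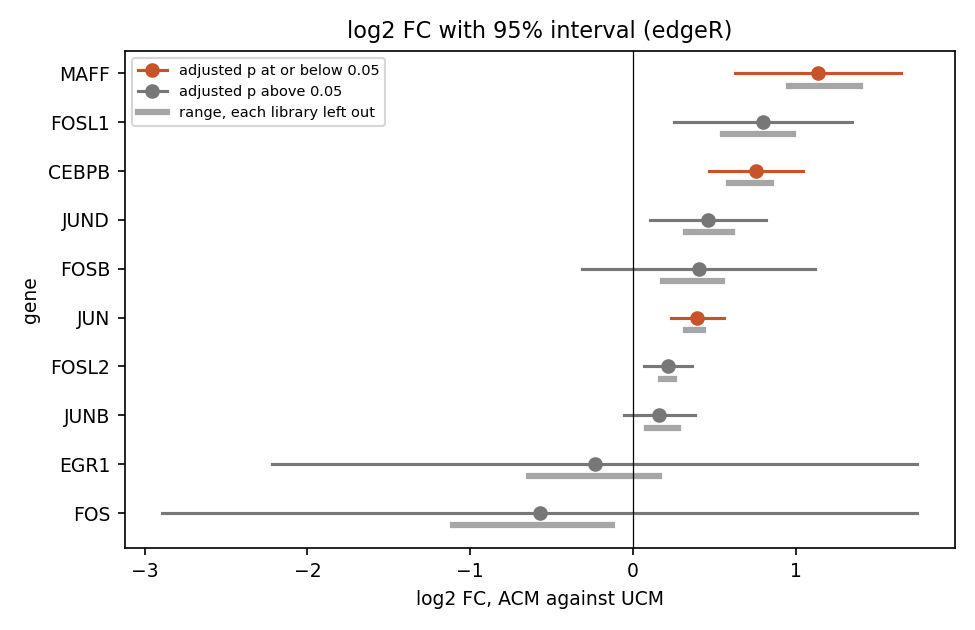
log2 FC of ACM against UCM for the 10 members (x axis) with the 95% interval from edgeR as a line, in orange where the adjusted p-value was at or below 0.05, and a grey bar for the range with each library left out in turn. MAFF, CEBPB and JUN are orange, and the intervals of FOS and EGR1 span from below -2 to above 1.7.

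FOS and EGR1, the classical immediate early genes of the set, were not called in the fit without replicate numbers. Their spread in both media lay between replicate 1 and the other replicates. FOS (ENSG00000170345), on the plus strand of chromosome 14 from 75278826 to 75282230, had 33, 108 and 97 counts across ACM replicates 1 to 3 against 16, 181 and 150 counts in UCM. Scaled to CPM, they came to 1.57, 6.08 and 5.27 in ACM against 0.758, 9.73 and 8.75 in UCM, so that the mean of replicates 2 and 3 was 3.62 times replicate 1 in ACM and 12.2 times replicate 1 in UCM. EGR1 (ENSG00000120738), a zinc finger factor on the plus strand of chromosome 5 from 138465479 to 138469303, had 28.0, 84.4 and 99.9 CPM in ACM and 28.3, 106 and 115 CPM in UCM. For EGR1 the mean of replicates 2 and 3 was 3.29 times replicate 1 in ACM and 3.92 times in UCM. The log2 FC was -0.57 for FOS (95% interval -2.89 to 1.75, edgeR adjusted p = 0.773) and -0.24 for EGR1 (95% interval -2.21 to 1.74, edgeR adjusted p = 0.892). These intervals, from the fit that does not use the replicate number, are too wide to tell a fall from a rise. With a block on replicate number the log2 FC was -0.38 for FOS (SE 0.29, edgeR adjusted p = 0.446). For EGR1 it was -0.20 (SE 0.08, edgeR adjusted p = 0.117).

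How unusual this pattern was among the genes was counted after the values had been seen. Among 10945 tested genes whose mean reached 5 CPM, 2 had both replicate 1 libraries at 1/2 or less of every other library of their medium, and these were FOS and EGR1. FOS lay near that limit, with group means of 4.31 CPM in ACM and 6.41 CPM in UCM. As the rule and the limit were set with these values known, the count is no test of either gene. Without the limit on the average, 9 of 14451 genes met the rule, and the other 7 averaged below 5 CPM. The opposite pattern, replicate 1 at least 2 times every other library in both media, was met by 3 of the 10945 genes. Without the limit it was met by 20 of the 14451 genes. Leaving out replicate 1 of both media was an alternative added after the low FOS and EGR1 values there had been seen. In that fit FOS was lower in ACM with a log2 FC of -0.69 (SE 0.17, edgeR adjusted p = 0.0320), and EGR1 had a log2 FC of -0.25 (SE 0.09, edgeR adjusted p = 0.101). As the libraries were chosen on these same values, the SE and p-values of FOS and EGR1 there are no independent test of either gene. With those 4 libraries, JUN, MAFF and FOSL2 passed as higher and CEBPB did not (log2 FC 0.77, edgeR adjusted p = 0.0675). Of the 14393 genes tested in that fit, 1017 were called higher and 726 lower. The other members did not share the pattern to this extent, since the mean of replicates 2 and 3 was between 0.913 and 1.33 times replicate 1 in ACM and between 0.649 and 1.74 times replicate 1 in UCM for the remaining 8. FOSB, also an immediate early gene, was near the limit of what was counted, with 48, 44 and 31 counts in ACM and 23, 36 and 32 counts in UCM (log2 FC 0.40, edgeR adjusted p = 0.499). ERCC1, which overlaps FOSB on the other strand, had at least 1115 counts per library. The labels give no time of harvest or order of handling for the wells, and what differed between replicate 1 and the other replicates was not tested.

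**Figure D3:**
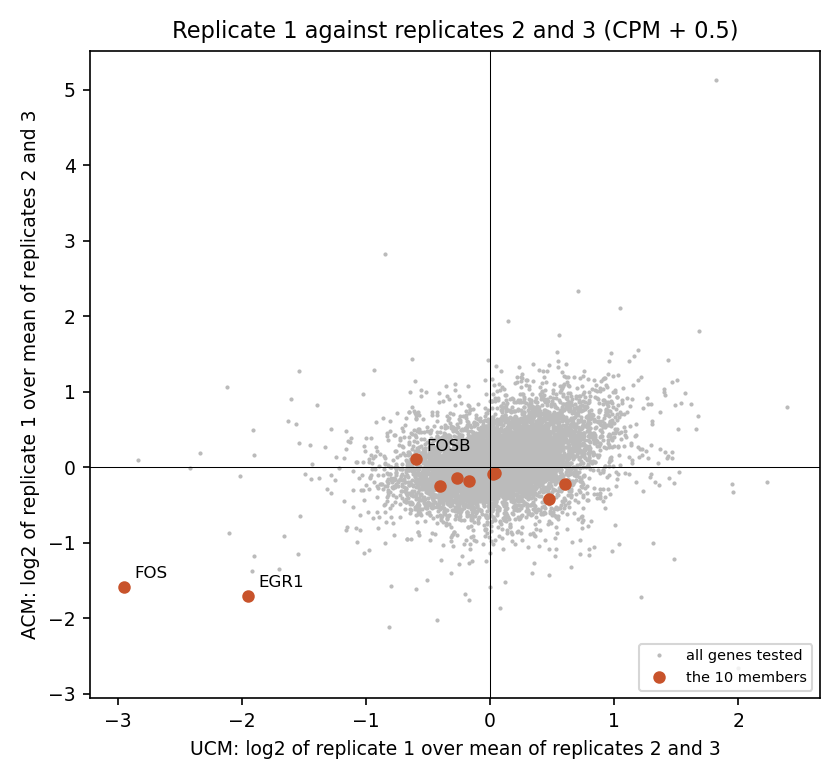
log2 of replicate 1 over the mean of replicates 2 and 3, in CPM with 0.5 added, in UCM (x axis) and ACM (y axis), for all 14451 genes tested (grey) and the 10 members (orange). FOS and EGR1 lie at the lower left, with replicate 1 below the other replicates in both media.

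Another library also moved with the members that were higher in ACM. ACM replicate 2 had the highest CPM of the ACM libraries for 9 of the 10 members, EGR1 being the exception, whereas 34.2% of all genes tested had their highest ACM value there. It was also the highest of all 6 libraries for 8 members, all but FOS and EGR1. No share of all genes was taken for this second count, which follows in part from most members being higher in ACM. Without ACM replicate 2, CEBPB remained as the 1 member called, and without UCM replicate 2 no member passed the adjusted p-value from edgeR (5 were higher and 0 lower at an unadjusted p of 0.05). The corresponding counts over all genes fell as well, from 484 higher and 320 lower to 197 and 87 without ACM replicate 2 and to 125 and 70 without UCM replicate 2. The part of ACM replicate 2 in the members' differences beyond these values was not tested.

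Levels can be compared between genes only per length, so the deposited TPM was used for the make-up of the AP-1 pool. In UCM the order by mean TPM was CEBPB (161), JUNB (152), JUN (139), FOSL1 (131), JUND (115), FOSL2 (61.5), EGR1 (41.6), MAFF (10.5), FOS (8.30) and FOSB (0.953). In ACM it was CEBPB (267), FOSL1 (227), JUN (181), JUNB (168), JUND (151), FOSL2 (70.3), EGR1 (35.1), MAFF (22.8), FOS (5.31) and FOSB (1.36). In both media each of the first 5 genes overlapped its neighbour in this order, and the fifth, JUND, lay above FOSL2 without overlap. FOSL2 lay above EGR1 without overlap in ACM and overlapped it in UCM, where EGR1 in turn lay above MAFF. MAFF, FOS and FOSB overlapped their neighbours in UCM and were apart from each other in ACM. FOSL1 stood above FOS in every library, and the transcripts of the FOS family were mainly FOSL1 and FOSL2.

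The summed TPM of the FOS family was 259.7, 373 and 279 across ACM replicates 1 to 3 against 227, 181 and 197 in UCM. All ACM sums were above all UCM sums, with means of 304 ± 60.6 in ACM and 202 ± 23.4 in UCM (SD over 3 libraries, exact two-sided permutation test, p = 0.10, the smallest that 3 against 3 libraries can give). The difference of 102 TPM was 67.7 TPM without ACM replicate 2. FOSL1 made up 72.6%, 78.1% and 72.0% of the FOS family in ACM and 71.8%, 60.0% and 61.5% in UCM. The groups were apart by a narrow margin, with UCM replicate 1 just below the lowest ACM library (exact two-sided permutation test, p = 0.10). FOSL2 made up 23.6% ± 3.54 in ACM and 30.7% ± 2.74 in UCM (SD over 3 libraries). FOS itself made up between 0.782% and 2.43% of the family in ACM and between 0.436% and 7.53% in UCM, and FOSB at most 0.666% in any library. The sum of the JUN family was 462, 532 and 505 TPM across ACM replicates 1 to 3 against 373, 401 and 447 TPM in UCM, again without overlap (exact two-sided permutation test, p = 0.10). JUN, JUNB and JUND shared this sum almost evenly, at 36.3% ± 1.62, 33.6% ± 0.408 and 30.1% ± 2.03 in ACM and 34.5% ± 3.61, 37.3% ± 1.19 and 28.2% ± 2.92 in UCM (SD over 3 libraries). The share of JUNB was lower in all 3 ACM libraries than in all 3 UCM libraries, while those of JUN and JUND overlapped between the media. The TPM of JUND overlapped too, unlike its CPM, with 130.4 in ACM replicate 1 and 130.5 in UCM replicate 3. Effective lengths, by which TPM is divided, lay between 958 and 1190 bases for JUND, between 1007 and 1219 bases for FOS and between 2047 and 3357 bases for FOSB, and between 1253 and 1303 bases for FOSL1. With 1 effective length per gene in all libraries, the ACM minus UCM difference in the FOSL1 share was 9.44 percentage points, against 9.79 with the deposited TPM.

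**Figure D4:**
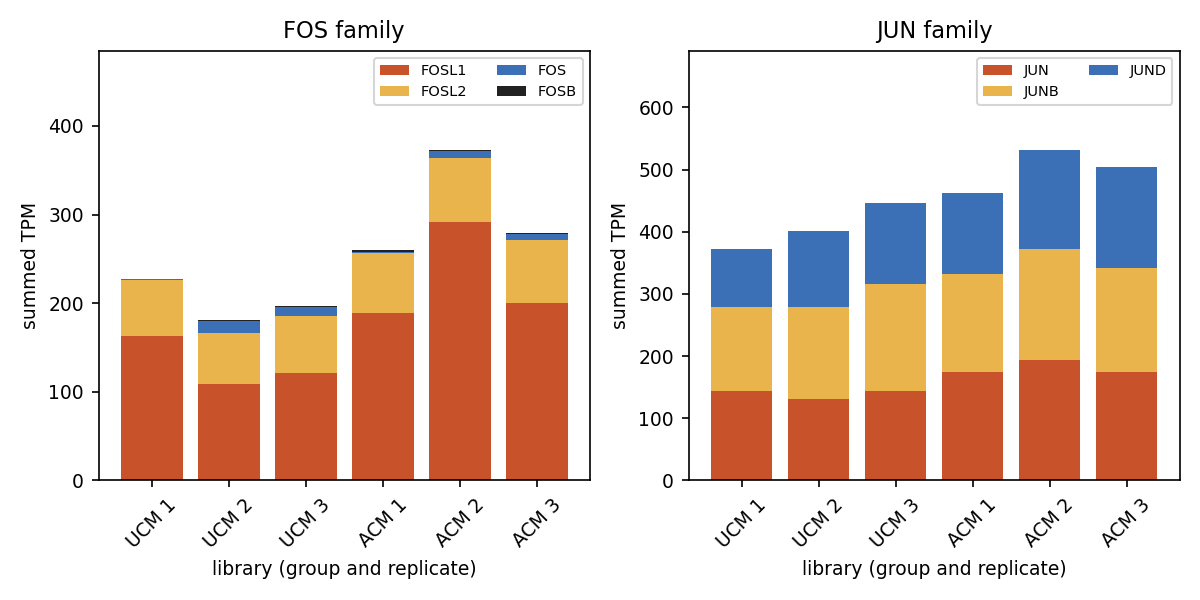
Summed deposited TPM of the FOS family (left) and the JUN family (right) in each library, stacked by gene. FOSL1 is the largest part of the FOS family in all 6 libraries, and the JUN family is shared almost evenly between its 3 genes.

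The partners and relatives of these factors were taken from lists typed by hand, with earlier results of these data known. The list counts stand against 3.35% of the 14451 genes tested being higher and 2.21% lower at the adjusted p-value from edgeR. At an unadjusted p of 0.05 these shares were 11.9% and 11.5%, and DESeq2 called 762 of all genes higher and 444 lower. Of 5 other C/EBP genes, 4 were tested and CEBPD rose, while none fell (0 by edgeR at an unadjusted p too, and 0 by DESeq2). CEBPD, whose product C/EBPδ acts with C/EBPβ in the acute phase response, had 119.7, 167 and 136 CPM across ACM replicates 1 to 3 against 46.8, 64.6 and 68.2 CPM in UCM. All 3 ACM libraries were above UCM, with a log2 FC of 1.23 (SE 0.17, edgeR adjusted p = 0.0121), and without UCM replicate 2 the adjusted p-value was 0.0509. Of 18 other bZIP genes whose proteins pair with AP-1 or small MAF proteins, 13 were tested, 1 rose and none fell at the adjusted p-value from edgeR (7 higher and 0 lower at an unadjusted p, and 4 and 0 by DESeq2), with a median log2 FC of 0.23. The one that rose was BACH1, a repressor that pairs with small MAF proteins such as MAFF, with 27.4, 37.8 and 31.9 CPM in ACM and 21.8, 21.3 and 20.2 CPM in UCM. Its log2 FC was 0.61 from counts (SE 0.12, edgeR adjusted p = 0.0186) and it was not called in the 3 fits in which length entered, with -0.03 from DESeq2 with effective lengths (adjusted p = 0.992), and 0.20 (adjusted p = 0.9003) and 0.23 (adjusted p = 0.9011) from limma-trend on log2 of TPM plus 1 or 0.1. The effective length of BACH1 was 819 bases in UCM replicate 2 and between 1967 and 4118 bases elsewhere. With any 1 of ACM replicates 2 and 3 and UCM replicates 2 and 3 left out, BACH1 was not called (edgeR adjusted p of up to 0.0778).

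Of 28 other immediate early genes, 27 were tested, of which 4 rose and 1 fell at the adjusted p-value (3.35% and 2.21% of all genes tested), with a median log2 FC of 0.10. NFKBIZ, which encodes an IκB family protein that helps activate a second wave of inflammatory genes, reached 98.3 ± 28.7 CPM in ACM against 34.5 ± 9.03 CPM in UCM (SD over 3 libraries), with 1.51 as its log2 FC (edgeR adjusted p = 0.0335). DUSP1, a phosphatase that switches off MAP kinases, had a log2 FC of 0.53, while ZFP36L1, an RNA decay factor, and MYC had 0.31 and 0.30. RHOB, a small GTPase gene that growth factors induce, fell, from 46.8 ± 2.66 CPM in UCM to 35.2 ± 2.54 CPM in ACM (SD over 3 libraries), with -0.41 as its log2 FC (edgeR adjusted p = 0.0264). Whatever the p-value, 18 genes of the list were higher and 9 lower, against 6954 and 7497 of all 14451 genes tested. At an unadjusted p of 0.05 from edgeR, 10 of the list were higher and 3 lower (11.9% and 11.5% of all genes tested). Without UCM replicate 2 none of its genes passed in edgeR, where 9 were higher and 3 lower at an unadjusted p. Without ACM replicate 2 or without UCM replicate 3, 1 rose and RHOB was not called (edgeR adjusted p = 0.0838 and 0.125), and without ACM replicate 3, 3 rose and RHOB was again not called (edgeR adjusted p = 0.0714). DESeq2 called 6 of the list higher and 3 lower, and the fit blocked on replicate number 3 and 3. Replicate 1 was the lowest library in both media for 5 of these 27 genes (18.5%), close to the 20.0% of all genes tested, and for 4 of the 10 members. This count takes rank and not size. Among the 5, BTG2 came nearest to FOS and EGR1, the mean of replicates 2 and 3 being 2.27 times replicate 1 in ACM and 1.91 times in UCM. For EGR3 it was 1.82 and 1.27 times, and for KLF4, KLF10 and IER2 between 1.06 and 1.47 times.

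Of 27 genes for upstream MAP kinases, their relatives and serum response factor with its partners, 26 were tested, 1 rose and none fell at the adjusted p-value from edgeR (3 higher and 3 lower at an unadjusted p, and 2 and 1 by DESeq2), with a median log2 FC of -0.06. Of all genes tested, 3.35% were higher and 2.21% lower at the adjusted p-value, and 11.9% and 11.5% at an unadjusted p. ELK3, an ETS factor that binds beside serum response factor and that represses FOS when it is not phosphorylated, rose from 36.4 ± 5.52 CPM in UCM to 75.4 ± 13.8 CPM in ACM (SD over 3 libraries). Its log2 FC was 1.05 (SE 0.15, edgeR adjusted p = 0.0086), and it stayed at or below 0.05 in all 15 alternatives (highest adjusted p = 0.0458). These are transcripts of the kinases, and the files hold no measure of phosphorylation.

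Textbook targets of AP-1 were listed as 21 genes, many of which NF-κB also controls. Of the 17 tested, 4 rose and 1 fell at the adjusted p-value, and 12 were higher and 1 lower at the unadjusted p-value, while DESeq2 called 11 higher and 1 lower, with a median log2 FC of 0.80. The shares over all 14451 genes tested were 3.35% and 2.21% adjusted and 11.9% and 11.5% unadjusted, and DESeq2 called 762 of them higher and 444 lower. Because the list was chosen with earlier results of these data known, its counts are no test of AP-1 targets as a set. MMP3, a matrix protease with an AP-1 element in its textbook promoter, had 13.0, 36.3 and 14.3 CPM across ACM replicates 1 to 3 against 3.70, 2.85 and 1.98 CPM in UCM, a log2 FC of 2.88 (SE 0.50, edgeR adjusted p = 0.0329). IL6, a gene of an inflammatory cytokine, had a log2 FC of 2.75, and CCL2, a chemokine gene, and TIMP1, an inhibitor of matrix proteases, had 0.80 and 0.45. HBEGF, which encodes a ligand of the EGF receptor, fell, with 47.1, 41.7 and 52.9 CPM in ACM and 72.3, 72.4 and 79.4 CPM in UCM, a log2 FC of -0.66 (SE 0.09, edgeR adjusted p = 0.0050). HBEGF and CCL2 passed in all 15 alternatives (highest adjusted p = 0.0305 and 0.0489), whereas MMP3, IL6 and TIMP1 did not, with adjusted p-values of up to 0.160, 0.180 and 0.152. Without UCM replicate 2 and without UCM replicate 3, 1 gene of the list rose and 1 fell.

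**Figure D5:**
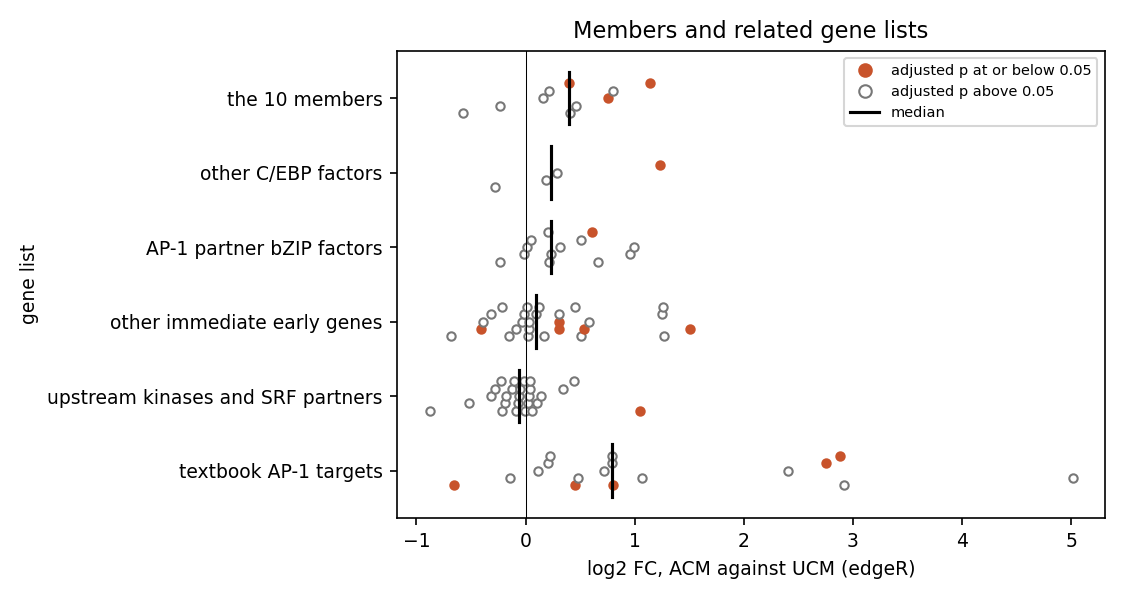
log2 FC of ACM against UCM (x axis) for each tested gene of the 10 members and of 5 related lists (rows), filled where the adjusted p-value from edgeR was at or below 0.05, with a line at each list's median. The medians run from -0.06 for the upstream genes to 0.80 for the AP-1 targets, and called genes lie on both sides of 0 for the immediate early genes and the targets.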

How the data were processed

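Libraries of polyA RNA from BT-549 cells, 3 in ACM and 3 in UCM, were grouped by their sample titles. The authors deposited RSEM output per gene, made from paired reads after Trim Galore and STAR on GRCh38, which holds an expected count not scaled for depth and a TPM, together with the effective length in bases, a mean over transcripts weighted by abundance. Versions, gene annotation and strand setting are not given in the sources used here. A further table of the authors' own DESeq2 fold changes was not used. Gene symbols came from GENCODE 44 by identifier without version (62541 of 63140 matched), and promoters from RefSeq.

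Expected counts were rounded and tested in R 4.3.3 with edgeR 4.0.16 (TMM, filterByExpr, robust quasi-likelihood fit, condition only, Benjamini-Hochberg over 14451 genes). The shared coefficient of biological variation was 0.115. Standard errors were taken as the log2 FC over the root of the F statistic, and intervals are at 95%. Sums and shares of TPM were compared by exact permutation over libraries. The scripts were tested on simulated data. The members and lists were chosen with earlier results of these data known. The genes named are the 10 members and, from each list, up to 6 with the smallest adjusted p-value at or below 0.05. Marker genes, genes that overlap a member and the other immediate early genes with replicate 1 lowest in both media are named as well. Alternatives were DESeq2 1.42.0 with and without effective lengths, RLE factors, a minimum of 1 count over all libraries or of 10 in each, limma 3.58.1 (limma-trend) on log2 of TPM plus 1 or 0.1, a fit blocked on replicate number, and fits leaving out each library. The comparison without replicate 1 of both media and the counts of genes low in replicate 1 were added after seeing the data.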

Additional observations from a re-analysis of the deposited data

How the results depend on the processing

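The number of members that rose in ACM was 3 from edgeR, 5 with DESeq2, 4 with DESeq2 and effective lengths or with every gene of at least 1 count, and 3 with RLE factors, with at least 10 counts in every library and with limma-trend on log2 TPM. With each library left out in turn it lay between 0 and 3, and the number lower was 0 in the other 14 alternatives and 1 (FOS) without replicate 1 of both media. EGR1 changed sign, to a log2 FC of 0.16 without ACM replicate 1 and 0.08 without UCM replicate 3, within a range of -0.64 to 0.16 with each library left out, and the other 9 members kept their direction in all 15 alternatives. Over all genes, 484 higher and 320 lower became 762 and 444 with DESeq2, 1045 and 679 with every gene of at least 1 count, 230 and 132 with limma-trend on log2(TPM + 1), 1017 and 726 without replicate 1 of both media, and between 125 and 738 higher and between 62 and 572 lower with each library left out. The cause was not tested. With each library left out, the ACM minus UCM difference ran from 67.7 to 124 TPM for the FOS family sum (102 with all libraries), from 75.9 to 113 TPM for the JUN family sum (93.0), from 7.60 to 13.5 percentage points for the FOSL1 share (9.79) and from 0.65 without UCM replicate 3 to 3.90 without UCM replicate 1 for the JUN share (1.82), so the size of the last rests on single libraries.

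The labels give both media the replicate numbers 1, 2 and 3. Deviations from the group means correlated at 0.376 for replicate 1, 0.0376 for replicate 2 and 0.259 for replicate 3 across the tested genes. The value for replicate 1 was the highest of all pairs. Each replicate 1 library correlated at between -0.392 and -0.019 with replicates 2 and 3 of the other medium. Deviations within a medium cancel for each gene, so these negative values follow in part from the positive one and are no separate evidence. ACM replicate 3 correlated more with UCM replicate 2 (0.272) than with its own number. ACM replicate 2 and UCM replicate 3, however, each correlated most with the library of their own number. These values do not settle whether the numbers pair the libraries, and the fit used for the results above does not use them. With the replicate block, 909 genes were higher and 703 lower, against 484 and 320 without it, and 3 members were higher, JUN, JUND and CEBPB. Under the block MAFF was at a log2 FC of 1.15 (edgeR adjusted p = 0.0840), FOS -0.38 (adjusted p = 0.446) and EGR1 -0.20 (adjusted p = 0.117). The SE was 0.29 for FOS and 0.08 for EGR1 with the block, against 0.93 and 0.75 without it. Depth limits FOS and FOSB, with as few as 16 and 23 counts in a library.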
